A study of Oryctolagus cuniculus with 12 samples.

Results

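The genes described here encode the enzymes that build cholesterol and fatty acids, with the proteins that switch them on, in 12 RNA sequencing libraries of rabbit cornea. The members were the rows whose gene name was on a list of 35 symbols, and 29 of the 35 were present among the 29076 genes of the deposited table. By role these were 6 of 8 enzymes of the mevalonate pathway, 9 of 11 enzymes of the sterol pathway, 8 of 10 enzymes of fatty acid and lipid synthesis, and 6 of 6 proteins of SREBP regulation and sterol transport. MVD, IDI1, CYP51A1, DHCR7, FASN and SCD were not analysed here under those names. Every one of the 29 had a count above 0 in all 12 libraries and passed the filter on low counts, so no member was lost before testing. The libraries fall into 4 groups of 3, labelled GL, RL, blue_light and control. The animals were 6 months of age on a normal diet and the light exposure ran for 6 weeks, a text that the labels attach to the control libraries too. GL and RL are not spelled out, and no wavelength or intensity is given in the sources used here. Nothing says that each library came from a separate animal. The p-values below therefore weigh group differences only against the spread among these libraries, and that spread may be technical.

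Cells make cholesterol from acetyl-CoA. Thiolase and HMG-CoA synthase start the mevalonate pathway, mevalonate is turned into farnesyl diphosphate, and squalene synthase commits it to the sterol pathway, which ends in cholesterol. Fatty acid synthesis draws on the same acetyl-CoA, which acetyl-CoA carboxylase commits to chain building before elongases and desaturases shape the chains. SREBP transcription factors drive both programs: when sterols are scarce, SCAP carries SREBP from the endoplasmic reticulum to the Golgi, where it is cut and released to the nucleus, and when sterols are plentiful the INSIG proteins hold SCAP back. Many of the enzymes, and INSIG1 itself, are textbook SREBP targets, so their messenger RNAs often move together.

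Total counts per library ran between 40.9 and 64.7 M (M for mega). The summed level of 6 corneal epithelial marker genes was between 18210 and 19500 FPKM in GL, between 14310 and 20640 FPKM in RL, between 12770 and 16060 FPKM in blue_light, and between 12460 and 16850 FPKM in control. FPKM is the deposited level, scaled to gene length and library size. The sum of 14 lens markers was between 988 and 4075 FPKM in GL, between 899 and 3632 FPKM in RL, between 2622 and 20370 FPKM in blue_light, and between 6477 and 10280 FPKM in control. Retinal markers were highest in GL 3, blue_light 1 and control 2. Glands of the eyelid and fat cells are rich in lipid synthesis: 9 sebaceous and meibomian gland markers summed to no more than 4.91 FPKM in any library, while 8 of 10 adipocyte markers were present and summed to between 14.7 and 18.0 FPKM in GL, between 5.65 and 15.3 FPKM in RL, between 10.1 and 20.9 FPKM in blue_light and between 11.2 and 34.0 FPKM in control. Of the 8 adipocyte markers with a row, LEP and FABP4 stood at 0 in all libraries and add nothing to the sums. LPL stood at 21.5 FPKM in control 2 and 11.4 FPKM in control 3. In any other library LPL was no more than 3.39 FPKM. GPD1 differed the other way, with 8.05, 7.69 and 10.2 FPKM in GL against 3.97, 6.24 and 5.12 FPKM in control. GPD1 had 1.393, 8.495 and 4.088 FPKM in RL, and 14.8, 5.57 and 6.804 FPKM in blue_light. The adipocyte markers' part in the results was not tested. In bulk RNA, fewer cells of a type and less RNA per cell cannot be told apart. The libraries also form 2 sets by their number of rare transcripts (genes at counts of 1 to 20): all 3 blue_light libraries, control 1 and RL 1 had 2389 to 2563 such genes, and the other 7 libraries had 767 to 1461.

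The pathway was well represented in the cornea. The median member stood at 26.5 FPKM over the 12 libraries, against 9.43 FPKM for the 14206 genes with a count above 0 in every library. MSMO1, a methylsterol monooxygenase that takes part in removal of methyl groups from the sterol ring, was the most abundant member at 67.1 FPKM. The transcription factor SREBF1 followed at 56.7 FPKM and its brake INSIG1 at 47.2 FPKM. Mevalonate kinase, MVK, was the least abundant at 4.77 FPKM.

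Among the other mevalonate enzymes, thiolase ACAT2 averaged 30.7 FPKM, HMG-CoA synthase HMGCS1 29.2 FPKM, farnesyl diphosphate synthase FDPS 26.5 FPKM, phosphomevalonate kinase PMVK 22.2 FPKM, and GGPS1, which makes geranylgeranyl diphosphate for protein prenylation, 12.9 FPKM. In the sterol pathway, lanosterol synthase LSS averaged 46.1 FPKM, squalene synthase FDFT1 40.4 FPKM, lathosterol oxidase SC5D 34.4 FPKM and squalene epoxidase SQLE 29.6 FPKM. The sterol isomerase EBP averaged 24.8 FPKM, the sterol reductase TM7SF2 23.1 FPKM, the ketosteroid reductase HSD17B7 18.9 FPKM and the sterol dehydrogenase NSDHL 9.78 FPKM. These levels rest on the length-scaled unit, so they can be set beside each other between genes.

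For fatty acid and lipid synthesis, the elongase ELOVL5 averaged 34.6 FPKM, the desaturase FADS1 30.7 FPKM and ATP citrate lyase ACLY, which supplies acetyl-CoA from citrate, 28.8 FPKM. The desaturase FADS2 averaged 14.6 FPKM, ELOVL6 13.8 FPKM, acetyl-CoA carboxylase ACACA 12.3 FPKM, the acetyl-CoA synthetase ACSS2 11.4 FPKM and the phosphatidate phosphatase LPIN1 5.04 FPKM. Of the regulators, SCAP averaged 32.8 FPKM, SREBF2 29.4 FPKM, INSIG2 16.1 FPKM and the sterol carrier STARD4 6.15 FPKM. SCAP was the steadiest member, with its highest library 1.41 times its lowest, and HMGCS1 the most variable at 4.18 times.

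**Figure D1:**
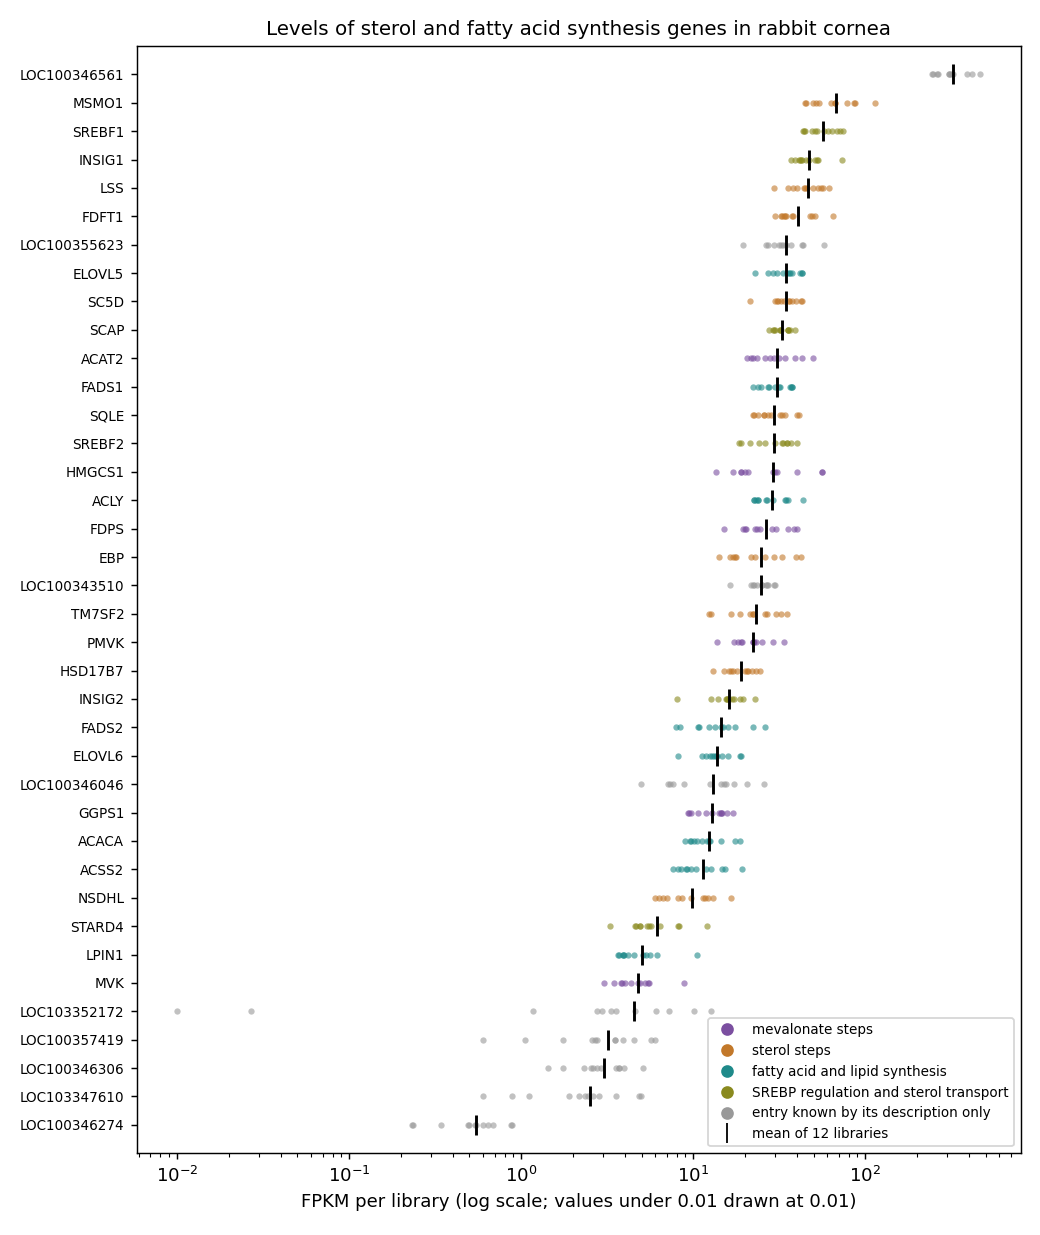
Each grey or coloured point is the FPKM of a gene in one of the 12 libraries, on a log axis, coloured by role; the black bar is the mean. Members lie between MVK at 4.77 FPKM and MSMO1 at 67.1 FPKM on average, while LOC100346561, an acyl-CoA desaturase entry known by its description, lies above all of them at 321 FPKM.

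Most members stood higher in RL than in control, with the largest differences in the early mevalonate enzyme HMGCS1, the sterol carrier STARD4 and the sterol enzyme MSMO1, but none passed the test. In RL, 25 of 29 members had a fitted level above control, with a median log2 fold change of 0.46, whereas 50.5% of the 18171 genes tested were higher, with a median of 0.00. The sterol enzymes were higher in 9 of 9 cases (median 0.54), the mevalonate enzymes in 5 of 6 (median 0.585), the fatty acid and lipid enzymes in 7 of 8 (median 0.44), and the regulators in 4 of 6 (median 0.26). Called at a Benjamini-Hochberg adjusted p below 0.05 in edgeR, 0 of 29 members changed, beside a background of 2 genes or 0.011% of those tested. At an unadjusted p below 0.05, 9 members were higher and 1 was lower, against backgrounds of 2.31% and 2.43% of all genes. DESeq2 on the same counts called 2 members, HMGCS1 and MSMO1, and limma on log2 FPKM called 0.

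HMGCS1, which makes HMG-CoA, had 40.0, 56.0 and 56.3 FPKM in the RL libraries, against 19.97, 18.9 and 30.7 FPKM in the control libraries. Every RL library was above every control library. The means were 50.8 ± 9.29 FPKM in RL and 23.2 ± 6.52 FPKM in control (SD, n = 3 each), and the log2 fold change was 1.20 ± 0.30 (SE). The adjusted p was 0.666 in edgeR and 0.0240 in DESeq2, and it lay between 0.22 and 1 over the other alternatives.

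MSMO1 had 86.1, 114.1 and 86.5 FPKM in RL, against 63.0, 45.3 and 53.9 FPKM in control. The groups did not overlap, and RL 2 was the highest library of the 12. The log2 fold change was 0.89 ± 0.21 (SE), with an adjusted p of 0.565 in edgeR and 0.0202 in DESeq2, and between 0.218 and 1 over the other alternatives. NSDHL, which acts just after MSMO1 on the same sterol ring, had 13.1, 16.7 and 12.1 FPKM in RL, against 8.62, 9.72 and 5.99 FPKM in control. It too was higher in every RL library, with a log2 fold change of 0.85 ± 0.30 (edgeR adjusted p = 1).

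SQLE, the epoxidase that adds oxygen to squalene, had 31.9, 41.2 and 39.9 FPKM in RL, against 22.2, 25.8 and 32.7 FPKM in control. RL 1 lay within the control range here, just under control 3, so the groups overlapped. The log2 fold change was 0.56 ± 0.19 (edgeR adjusted p = 1).

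ACSS2, which makes acetyl-CoA from acetate, had 12.6, 19.2 and 14.7 FPKM in RL, against 8.14, 9.10 and 9.72 FPKM in control. All 3 RL libraries were above the controls, which lay close together. Its log2 fold change was 0.86 ± 0.26 (edgeR adjusted p = 0.921). LPIN1, which makes diacylglycerol for fats and phospholipids, had 3.67, 10.5 and 5.12 FPKM in RL, against 3.92, 3.91 and 4.51 FPKM in control. One library set this difference: the log2 fold change was 0.73 ± 0.31 with all libraries and 0.16 without RL 2 (edgeR adjusted p = 1 and 0.998).

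STARD4, which carries cholesterol between membranes, had 6.40, 12.0 and 8.17 FPKM in RL, against 4.64, 4.91 and 5.41 FPKM in control. The groups did not overlap, and the log2 fold change was 0.90 ± 0.31 (edgeR adjusted p = 1). The SREBP genes showed smaller differences: SREBF1 by 0.29 ± 0.18 and SREBF2 by 0.22 ± 0.27 on the log2 scale, and SCAP by -0.12 ± 0.15, all with an edgeR adjusted p of 1.

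**Figure D2:**
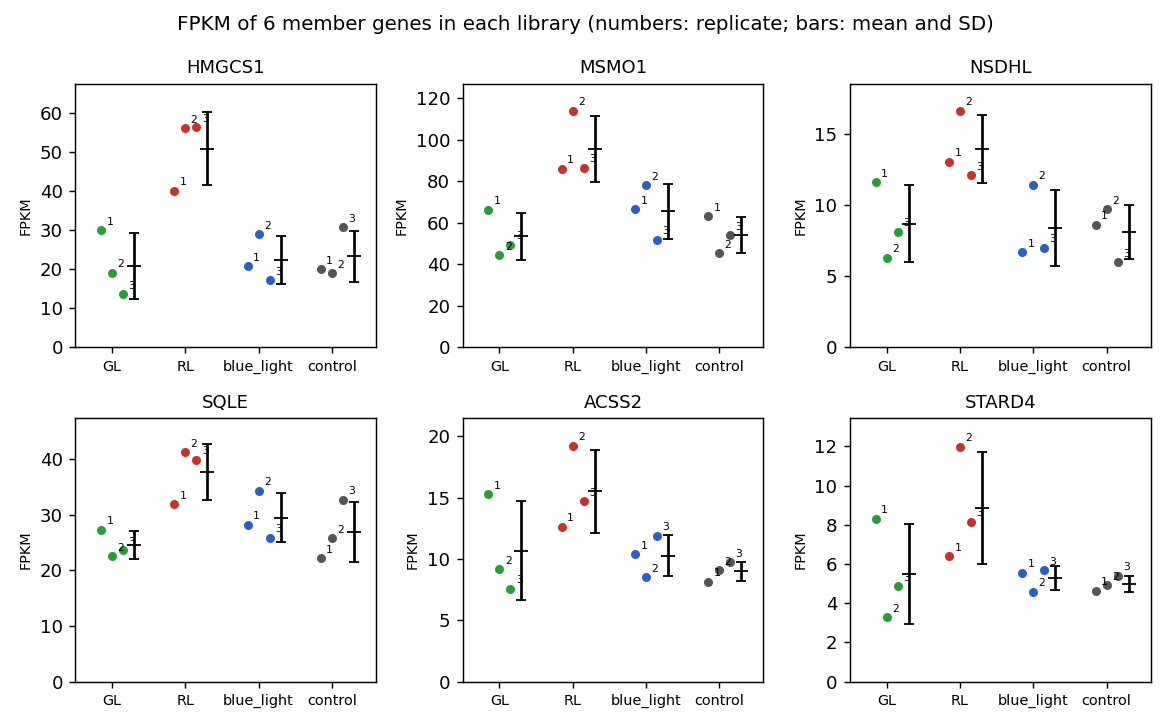
FPKM of 6 members in each library, with the replicate number beside each point and the mean and SD as bars. For HMGCS1, MSMO1 and NSDHL all 3 RL points lie above the other 9 libraries; for SQLE, ACSS2 and STARD4, RL 2 stands highest while RL 1 lies nearer to the other groups.

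In all, 7 members were higher in every RL library than in every control library: MSMO1, HMGCS1, ACSS2, STARD4, NSDHL, FDPS and LSS. The background for that pattern was 2.65% of all genes. GGPS1 was lower in every RL library, against a background of 6.16%. For 3 members, HMGCS1, MSMO1 and NSDHL, every RL library lay above all 9 others, a pattern held by 0.26% of the 14206 genes with a count above 0 throughout. The summed level of the 9 sterol enzymes was 365 ± 64.6 FPKM in RL and 259 ± 16.4 FPKM in control, and that of the 6 mevalonate enzymes 167 ± 38.0 FPKM in RL and 113 ± 14.1 FPKM in control (SD, n = 3 each).

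Other marker lists also differed between the groups, the retinal one largely through GL 3, blue_light 1 and control 2. All 14 lens markers were lower than in control in RL (median log2 fold change -1.51) and in GL (median -1.63), and 7 of 14 in blue_light. Of the proliferation markers, 8 of 8 were higher in RL (median 0.69), 6 of 8 in GL (median 0.34) and 8 of 8 in blue_light (median 0.95). The proliferation sum was between 39.2 and 61.6 FPKM in RL and between 18.1 and 50.9 FPKM in control. Of the retinal markers, 1 of 11 was higher in RL (median -1.53) and 11 of 11 in blue_light (median 0.84), and of the epithelial markers 4 of 6 were higher in RL (median 0.25) and 2 of 6 in blue_light (median -0.07). None of these markers was called by edgeR, and the part of these shifts in the members' differences was not tested.

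In GL the members with the smallest p were acetyl-CoA carboxylase, GGPS1 and SREBF1, and HMGCS1 and MSMO1 stood near control. Of the 29 members, 23 were higher in GL than in control, with a median log2 fold change of 0.21, whereas 48.2% of all genes were higher, with a median of -0.02. The counts were 4 of 6 mevalonate enzymes (median 0.17), 7 of 9 sterol enzymes (median 0.14), 7 of 8 fatty acid and lipid enzymes (median 0.31) and 5 of 6 regulators (median 0.14). In edgeR 0 of 29 members changed at an adjusted p below 0.05, where the background was 0.055% of genes. Unadjusted, 2 were higher and 1 lower, against backgrounds of 3.58% and 4.52%. DESeq2 and limma each called 0 members as well. Leaving out 1 library at a time moved the median between 0.094 (without GL 1) and 0.347 (without GL 2), and it was 0.06 with the library set as a covariate. Beside this, all 14 lens markers were lower in GL (median -1.63), and 11 of 11 retinal and 5 of 6 epithelial markers were higher (medians 2.29 and 0.42). The retinal sum was 8.92, 4.90 and 245 FPKM in GL, against 4.48, 51.6 and 5.15 FPKM in control, so the retinal difference rests on GL 3. The part of these markers in the members' differences was not tested.

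ACACA, the carboxylase that commits acetyl-CoA to fatty acids, had 14.6, 12.4 and 18.6 FPKM in GL, against 8.996, 10.5 and 12.0 FPKM in control. The groups did not overlap, although GL 2 and control 3 were close. The log2 fold change was 0.59 ± 0.21 (edgeR unadjusted p = 0.0158, adjusted p = 0.565). ACLY had 35.5, 26.8 and 34.6 FPKM in GL, against 23.7, 29.0 and 23.6 FPKM in control. GL 2 lay below control 2, so the groups overlapped, and the log2 fold change was 0.39 ± 0.23 (edgeR adjusted p = 0.636).

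SREBF1, whose product favours fatty acid genes, had 64.1, 68.2 and 70.9 FPKM in GL, against 43.9, 52.6 and 60.4 FPKM in control. GL was above control throughout, with a log2 fold change of 0.42 ± 0.18 (edgeR unadjusted p = 0.0344, adjusted p = 0.610). SREBF2, whose product favours cholesterol genes, had 37.2, 32.9 and 35.1 FPKM in GL, against 21.5, 29.9 and 33.2 FPKM in control. Control 3 lay above GL 2, and the log2 fold change was 0.36 ± 0.27 (edgeR adjusted p = 0.719).

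GGPS1 was the member that stood lowest relative to control. It had 11.9, 9.47 and 10.6 FPKM in GL, against 15.7, 14.4 and 17.1 FPKM in control. Each GL library was below each control library, with a log2 fold change of -0.51 ± 0.19 (edgeR unadjusted p = 0.0200, adjusted p = 0.588). In RL its values were 14.1, 9.76 and 9.34 FPKM, also below control in every library, with a log2 fold change of -0.44 ± 0.19 (edgeR unadjusted p = 0.0382, adjusted p = 1). The GL and RL comparisons share the 3 control libraries, so these values do not stand apart from each other.

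TM7SF2, a reductase of the sterol ring, had 34.8, 21.5 and 30.4 FPKM in GL, against 12.3, 26.7 and 22.4 FPKM in control. FDFT1, at the entry to the sterol pathway, had 51.2, 32.1 and 47.7 FPKM in GL, against 34.4, 37.9 and 34.1 FPKM in control. For both genes GL 1 and GL 3 were above all controls and GL 2 was not. The log2 fold changes were 0.54 ± 0.35 for TM7SF2 and 0.35 ± 0.25 for FDFT1 (edgeR adjusted p = 0.670 and 0.706).

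Both defining markers of the program stood near control in GL. HMGCS1 had 29.9, 19.0 and 13.5 FPKM in the GL libraries, a log2 difference of -0.11 ± 0.30 from control, and SQLE had 27.3, 22.5 and 23.7 FPKM, a log2 difference of -0.09 ± 0.19 (edgeR adjusted p = 0.951 and 0.933). MSMO1 had 66.4, 44.4 and 49.3 FPKM in GL, a log2 difference of 0.03 ± 0.21 from control (edgeR adjusted p = 0.983).

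Every GL library lay above every control library for 3 members, ACACA, SREBF1 and LPIN1, where the background was 7.67% of genes, and below for 1, GGPS1, where it was 10.8%. LPIN1 had 5.58, 5.35 and 6.12 FPKM in GL, and its log2 fold change from control was 0.52 ± 0.31 (edgeR adjusted p = 0.638). Library size moved with GL: it was between 61.6 and 64.7 M counts in GL and between 44.4 and 56.9 M counts in control. With log2 library size as a covariate the median log2 fold change of the members was -0.11.

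The members' fitted log2 differences of blue_light over control lay between -0.302 and 0.356. Of 29 members, 11 were higher in blue_light and the median log2 fold change was -0.08, beside 51.8% of all genes higher and a median of 0.01. The counts were 1 of 6 mevalonate enzymes (median -0.10), 6 of 9 sterol enzymes (median 0.045), 3 of 8 fatty acid and lipid enzymes (median -0.08) and 1 of 6 regulators (median -0.17). No member changed in edgeR (0 of 29, background 0.0165%), and DESeq2 and limma also called 0. Unadjusted, 0 members were higher and 0 lower, against backgrounds of 1.75% and 1.51%. All 3 blue_light libraries but only 1 control library belong to the set with many rare transcripts, and with the set as a covariate the median was 0.236 and the log2 fold changes of HMGCS1, FADS1 and SREBF2 were positive (0.243, 0.154 and 0.261). Without the 3 libraries with retinal transcripts the median was 0.046. In 0 members did blue_light lie wholly above or wholly below control, against backgrounds of 4.74% and 4.3%.

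MSMO1 had 66.6, 78.0 and 51.7 FPKM in blue_light, a log2 difference of 0.27 ± 0.21 from control. LSS, which closes the rings of lanosterol, had 49.9, 40.0 and 53.1 FPKM in blue_light, against 38.1, 43.8 and 44.8 FPKM in control, a log2 difference of 0.17 ± 0.24. GGPS1 had 14.6, 14.7 and 12.9 FPKM in blue_light, a log2 difference of -0.16 ± 0.19. In all 3 genes the groups overlapped, and the edgeR adjusted p was 1.

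ELOVL6, which lengthens palmitate, had 13.6, 19.0 and 12.5 FPKM in blue_light, against 15.9, 8.17 and 11.2 FPKM in control, a log2 difference of 0.36 ± 0.24. FADS1, a desaturase of polyunsaturated chains, had 29.9, 24.8 and 31.4 FPKM in blue_light, against 23.9, 36.7 and 37.7 FPKM in control, a log2 difference of -0.20 ± 0.24. SREBF2 had 18.5, 24.1 and 26.0 FPKM in blue_light, a log2 difference of -0.30 ± 0.27. None of these groups separated, and each edgeR adjusted p was 1.

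HMGCS1 had 20.7, 28.9 and 17.1 FPKM in blue_light, a log2 difference of -0.06 ± 0.30, and SQLE had 28.2, 34.3 and 25.9 FPKM, a log2 difference of 0.13 ± 0.19. Both lay within or next to the control range (edgeR adjusted p = 1 each). A p that misses the threshold does not show that the groups are alike, and these standard errors leave room for moderate differences.

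**Figure D3:**
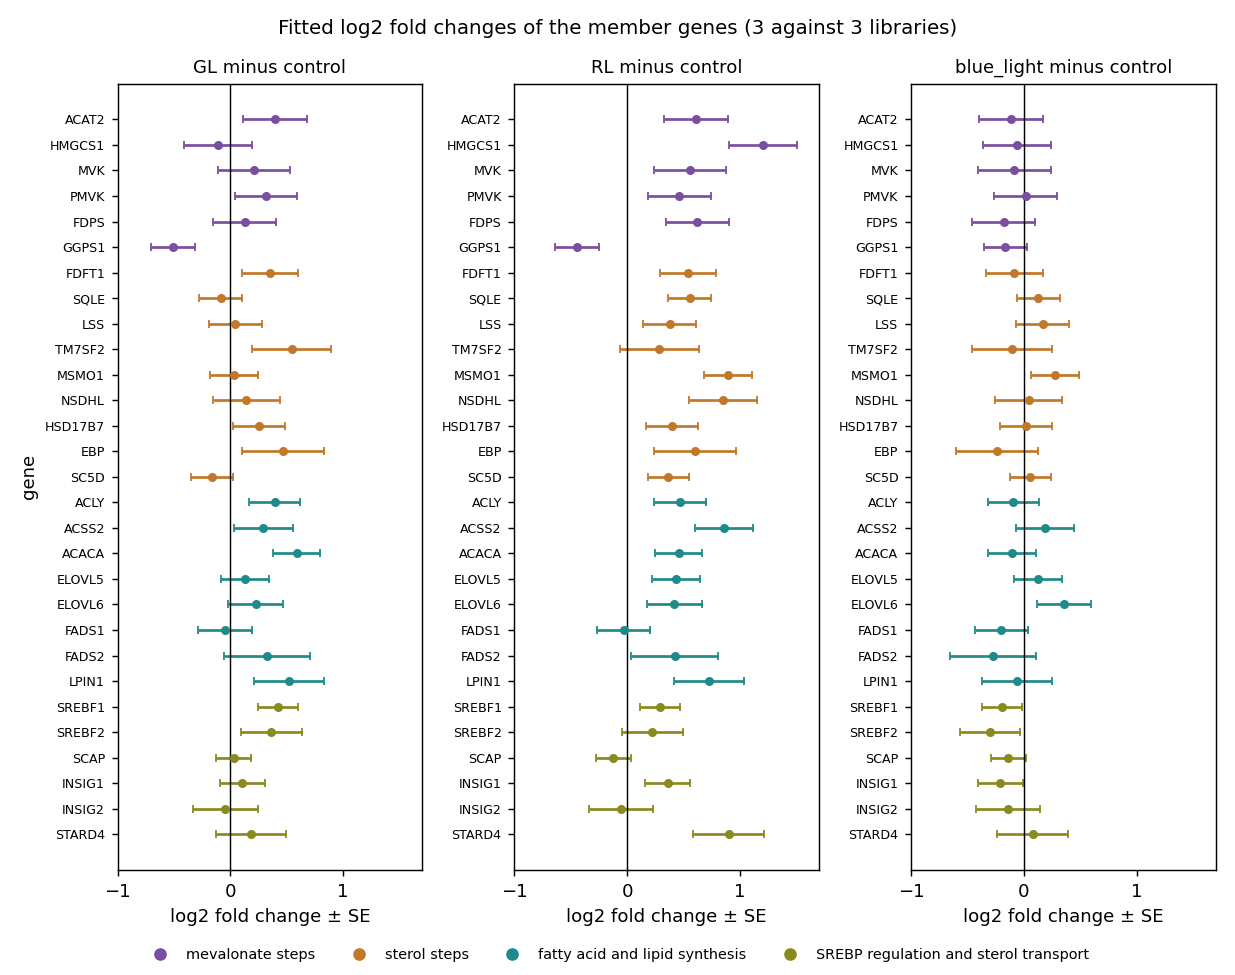
Fitted log2 fold change with its standard error for each member in GL, RL and blue_light against control, coloured by role. Points lie mostly right of 0 in RL (25 of 29) and GL (23 of 29) and on both sides in blue_light (11 of 29 higher); HMGCS1 stands out in RL at 1.20 and not in GL at -0.11.

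The light groups were also set against each other. Between GL and RL, HMGCS1 stood lower in GL by the widest margin of any member, with 29.9, 19.0 and 13.5 FPKM in GL against the RL values of 40.0 FPKM and above. The log2 fold change of GL over RL was -1.32 ± 0.30 for HMGCS1, -0.86 ± 0.21 for MSMO1 and -0.64 ± 0.19 for SQLE (edgeR adjusted p = 0.236, 0.302 and 0.455). In each of these genes every GL library was below every RL library. That held for 5 members, the other two being SC5D and NSDHL, against a background of 5.53% of genes.

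In the same comparison edgeR called 0 of 29 members (background 0.0715%). Unadjusted, 0 members were higher and 7 lower in GL, against backgrounds of 3.83% and 4.77%. DESeq2 called 2, HMGCS1 (adjusted p = 0.00365) and MSMO1 (adjusted p = 0.0169), and limma 0; over the other alternatives those adjusted p-values lay between 0.167 and 0.954 for HMGCS1 and between 0.234 and 0.954 for MSMO1. By role, 6 of 6 mevalonate, 8 of 9 sterol and 7 of 8 fatty acid and lipid enzymes were lower in GL (medians -0.28, -0.33 and -0.15), while 4 of 6 regulators were higher (median 0.07). Over all genes 48.3% were higher in GL, with a median of -0.02.

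Between GL and blue_light the smallest p belonged to the transcription factor SREBF1, then to ACACA and SREBF2. SREBF1 had 64.1, 68.2 and 70.9 FPKM in GL, against 43.7, 44.7 and 49.0 FPKM in blue_light. Every GL library was higher, a pattern held by 10.5% of genes. The log2 fold change was 0.62 ± 0.18. The adjusted p was 0.252 in edgeR and 0.0494 in DESeq2, and between 0.126 and 1 over the other alternatives. ACACA had 14.6, 12.4 and 18.6 FPKM in GL, against 9.57, 9.71 and 10.1 FPKM in blue_light, a log2 fold change of 0.69 ± 0.21 (edgeR adjusted p = 0.254). SREBF2 had 37.2, 32.9 and 35.1 FPKM in GL, against 18.5, 24.1 and 26.0 FPKM in blue_light, a log2 fold change of 0.67 ± 0.27 (edgeR adjusted p = 0.293).

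All 6 regulators had a higher fitted level in GL than in blue_light (median 0.24), and 21 of 29 members did (median 0.235, beside 46.5% and -0.05 for all genes). In edgeR 0 of 29 were called, with a background of 0.0495%. DESeq2 called 1, SREBF1, and limma 0. Unadjusted, 3 members were higher and 0 lower, against backgrounds of 6.57% and 8.3%. Every GL library lay above every blue_light library for 5 members and below for 1, against backgrounds of 10.5% and 16.5%. All GL libraries belong to the set with few rare transcripts and all blue_light libraries to the other set, so group and set cannot be told apart between these groups alone. With the set as a covariate, which control and RL libraries of both sets allow, the median was -0.15, and the log2 fold change was -0.15 for SREBF2, 0.205 for SREBF1 and 0.278 for ACACA.

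Between RL and blue_light, 28 of 29 members were higher in RL, with a median log2 fold change of 0.56 (all genes: 48% higher, median -0.02). The medians were 0.685 for mevalonate enzymes, 0.43 for sterol enzymes, 0.56 for fatty acid and lipid enzymes and 0.51 for regulators. HMGCS1 had a log2 fold change of 1.26 ± 0.30, MSMO1 of 0.62 ± 0.21 and INSIG1 of 0.57 ± 0.20 (edgeR adjusted p = 0.556, 0.910 and 0.910). INSIG1 had 41.9, 52.5 and 73.4 FPKM in RL, against 36.9, 42.6 and 39.2 FPKM in blue_light, and RL 1 lay just under blue_light 2.

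Of the 29 members 0 were called in edgeR between RL and blue_light (background 0.011%), and DESeq2 called 1, HMGCS1 (adjusted p = 0.0128; other alternatives between 0.147 and 1), while limma called 0. Unadjusted, 15 were higher and 0 lower, against backgrounds of 2.25% and 2.89%. Every RL library lay above every blue_light library in 9 members, against a background of 2.34%. Without RL 2 the median was 0.31, and with the library set as a covariate it was 0.22.

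Asked whether any of the 4 groups differed, edgeR called 0 of 29 members, with a background of 0.0605%. Unadjusted, 8 members had a p below 0.05, against a background of 7.79% of genes. HMGCS1, MSMO1 and ACACA had the smallest values (adjusted p = 0.300, 0.406 and 0.587). The DESeq2 likelihood ratio test called 2, HMGCS1 (adjusted p = 0.000749) and MSMO1 (adjusted p = 0.0102), and limma 0.

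Library by library, RL 2 stood highest most often. It was the highest library of the 12 for 18 of 29 members, RL 3 for 3 and RL 1 for 0. RL 1 was the lowest RL library for 22 members and lay inside the control range for 13, although it was above every control for 10, among them HMGCS1, MSMO1, NSDHL and STARD4. RL 2 lay above every control for 22 members and RL 3 for 20. The same counts were not made over all genes, so these ranks are not shown to be particular to the members. The median log2 fold change of RL over control was 0.68 without RL 1 and 0.299 without RL 2, and 0.265 with log2 library size as a covariate.

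The GL libraries differed among themselves as well. GL 1 was the highest GL library for 20 members and lay above every control for 17, while GL 2 was the lowest GL library for 23 and above every control for 3. For these counts too the share over all genes was not computed. The summed level of all 29 members was 873, 633 and 774 FPKM in GL, 741, 1039 and 943 FPKM in RL, 657, 696 and 680 FPKM in blue_light, and 645, 680 and 755 FPKM in control. RL 2 had the highest sum and GL 2 the lowest, and the light groups GL and RL spread more widely than blue_light and control.

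**Figure D4:**
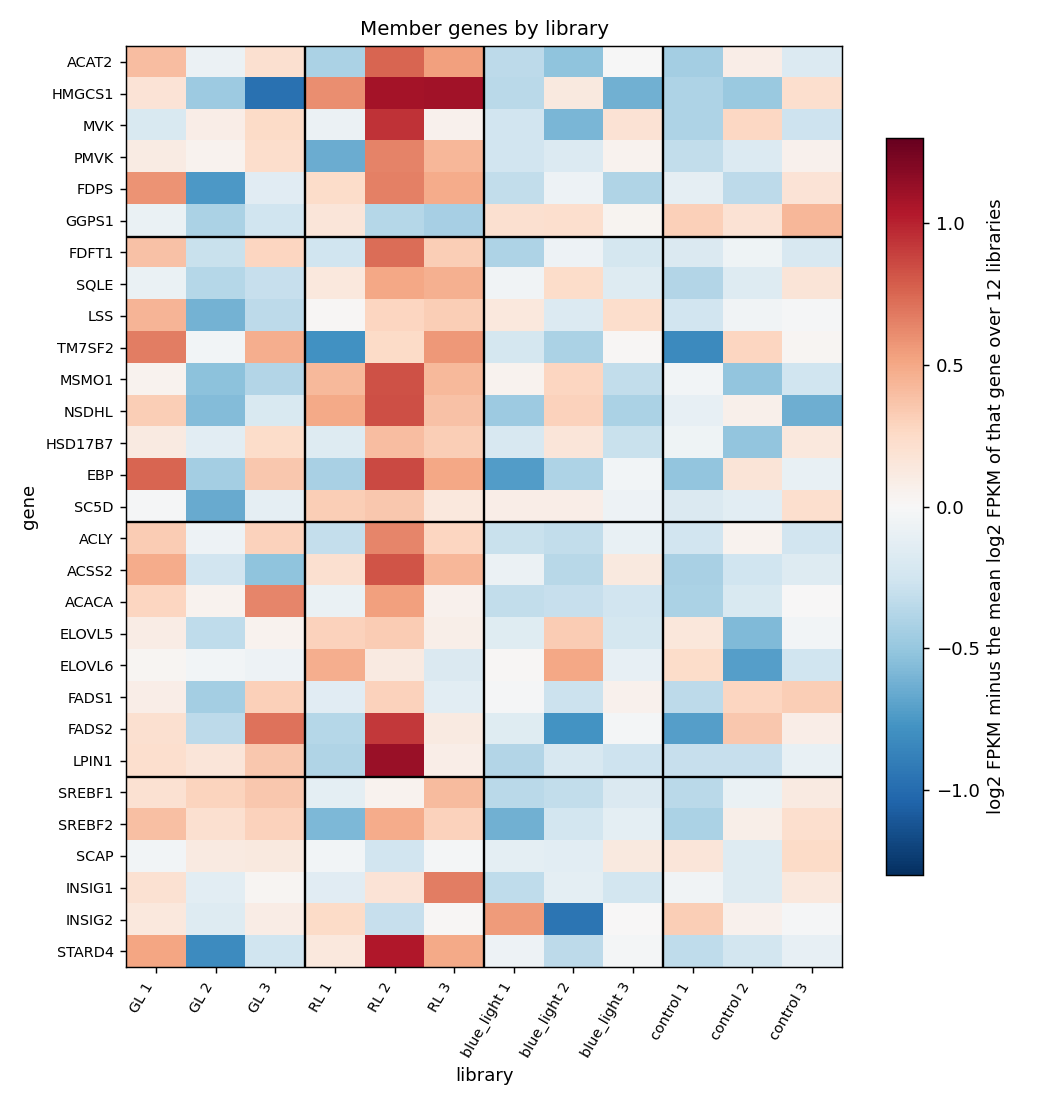
Each cell is the log2 FPKM of a member in a library minus that gene's mean over the 12 libraries; rows follow the pathway and black lines separate roles and groups. RL 2 is red in most rows (highest of all libraries for 18 members), and GL 2 is mostly blue. RL 1 is mixed within roles. It is red for HMGCS1, MSMO1, NSDHL, ELOVL5 and ELOVL6, and blue for PMVK, TM7SF2, EBP, ACLY and FADS2, among others.

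Between the sets of libraries with many and with few rare transcripts, some members differed before adjustment and none after it. With the set as a covariate in edgeR, 11 of 29 members had an unadjusted p below 0.05 for the set, beside 19.1% of all genes, and 0 passed after adjustment. Members were lower in the 5 libraries with many rare transcripts in 23 of 29 cases. The share of all genes lower in that set was not computed, so this count has no background. The largest differences were in TM7SF2 (log2 difference -1.14), FADS2 (-0.996), EBP (-0.873) and SREBF2 (-0.81). SREBF1 and SREBF2 were higher in every one of the other 7 libraries than in those 5, a pattern held by 1.97% of genes. MSMO1 and NSDHL differed little between the sets (0.03 and -0.05), and HMGCS1 by -0.44. With the set in the fit, RL over control gave a median of 0.44 for the members, 1.19 for HMGCS1 and 0.90 for MSMO1.

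Some enzymes missing by name were present under descriptions. They were picked with their values in view, and none is counted above. LOC100355623 is described as lanosterol 14-alpha demethylase, and its gene identifier carries the symbol CYP51A1 in the RefSeq table. It had 34.8, 43.5 and 57.8 FPKM in RL, against 27.0, 31.4 and 32.2 FPKM in control. RL was higher throughout, with a log2 fold change of 0.66 ± 0.27 (edgeR adjusted p = 1). Its levels in GL were 33.2, 37.1 and 29.4 FPKM, and in blue_light 19.5, 42.8 and 26.3 FPKM.

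LOC100346561, one of 5 entries described as acyl-CoA desaturase, the enzyme class that makes oleate from stearate, was more abundant than any member. It held between 90.8% and 96.1% of the FPKM of the 5 entries. Near-identical copies can share reads, so how these divide among the entries is uncertain. It had 305, 263 and 260 FPKM in GL, 466, 418 and 389 FPKM in RL, 243, 312 and 248 FPKM in blue_light, and 305, 324 and 319 FPKM in control. RL was above all 9 other libraries, and GL 1, the highest of GL, was level with the lowest control. The log2 fold change was 0.49 ± 0.16 for RL over control, -0.63 ± 0.16 for GL over RL and 0.73 ± 0.16 for RL over blue_light (edgeR adjusted p = 0.969, 0.295 and 0.380).

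A smaller desaturase entry, LOC100346046, had 20.6, 7.60 and 15.4 FPKM in GL, 17.1, 25.8 and 12.5 FPKM in RL, 4.99, 8.77 and 7.10 FPKM in blue_light, and 7.35, 15.2 and 14.5 FPKM in control. Every RL library was above every blue_light library (log2 fold change 1.48 ± 0.40, edgeR adjusted p = 0.693, DESeq2 adjusted p = 0.0394, range over all alternatives 0.0394 to 1). LOC103347610, a desaturase entry of low abundance, averaged 4.13 ± 1.31 FPKM in RL, 0.861 ± 0.255 FPKM in blue_light and 2.23 ± 0.289 FPKM in control (SD, n = 3 each). Its log2 fold change of RL over blue_light was 2.31 ± 0.55 (edgeR adjusted p = 0.556).

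The isomerase of the mevalonate pathway had 3 entries. LOC100343510, whose identifier carries the symbol IDI1 in the RefSeq table, held most of the signal and differed little: it averaged 21.3 ± 4.56 FPKM in GL, 26.1 ± 3.71 in RL, 27.4 ± 2.41 in blue_light and 24.0 ± 2.68 in control. LOC103352172 overlaps it by 1832 bases on the opposite strand in the deposited table, and since no strand-specific counting is stated, reads within that overlap cannot be told apart. Its counts were 1190, 666 and 541 in GL, 4, 221 and 0 in RL, 1597, 1410 and 1290 in blue_light, and 623, 578 and 422 in control. Each RL library was below, and each blue_light library above, every control. The log2 fold change of RL over blue_light was -4.52 ± 1.19 (edgeR adjusted p = 0.663; limma on log2(FPKM + 1) adjusted p = 0.00989; range over all alternatives 0.000833 to 1). Without RL 2, which alone held most of the RL counts, edgeR called LOC103352172 (adjusted p = 0.000833). Only RL libraries with counts of 4 and 0 then remain, so that call does not support a difference.

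**Figure D5:**
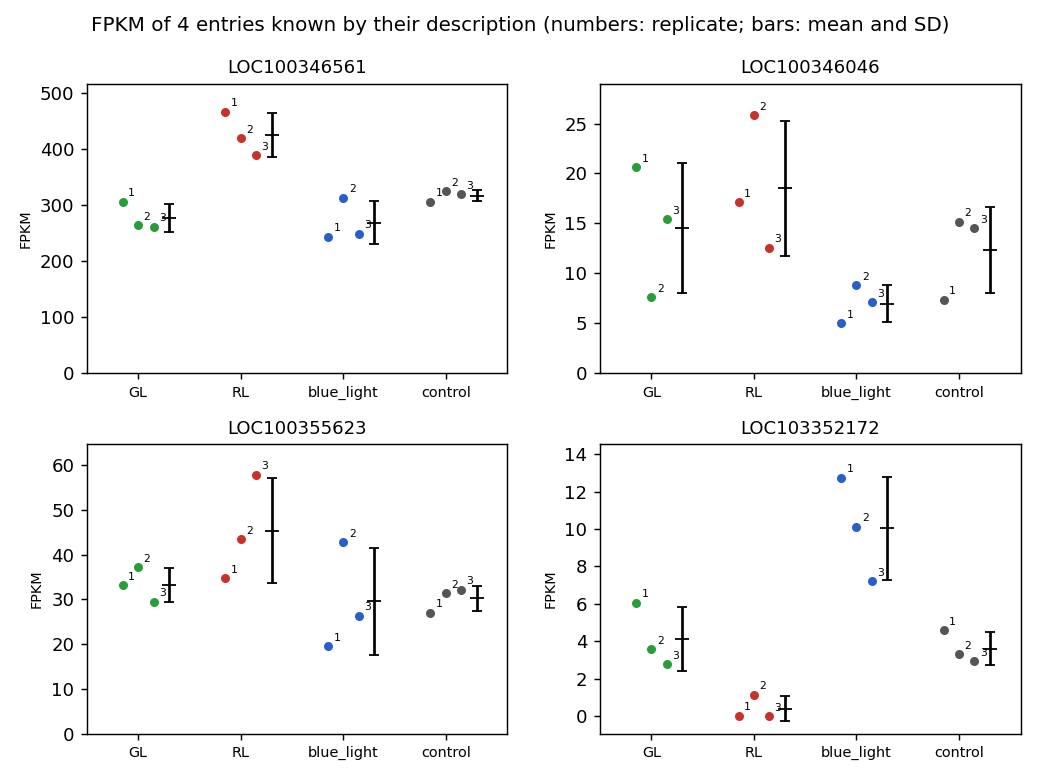
FPKM per library of 4 entries known by their description, with the replicate number beside each point and the mean and SD as bars. The desaturase LOC100346561 is between 389 and 466 FPKM in the RL libraries and reaches no more than 324 FPKM elsewhere, and the isomerase entry LOC103352172 is lowest in RL (0.398 FPKM on average) and highest in blue_light (10.03 FPKM).

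None of the genes next to the pathway was called by edgeR. Of 16 other synthesis genes tested, 8 were higher in GL, 11 in RL and 9 in blue_light, beside 48.2%, 50.5% and 51.8% of all genes. At an unadjusted p below 0.05 in edgeR 2 were higher in GL, 4 in RL and 0 in blue_light. The backgrounds for that were 3.58%, 2.31% and 1.75% of all genes. THRSP, a lipogenic factor, averaged 35.5 ± 12.6 FPKM in RL and 16.3 ± 10.9 FPKM in control (SD, n = 3 each), with overlapping groups and a log2 fold change of 1.18 ± 0.48. In GL the malic enzyme ME1, a source of NADPH for lipid synthesis, averaged 7.25 ± 1.43 FPKM, against 3.89 ± 1.86 FPKM in control, a log2 fold change of 0.96 ± 0.33 (edgeR adjusted p = 0.565). ME1 was higher in every GL library than in every control library, a pattern held by 7.67% of genes. In blue_light ME1 averaged 5.32 ± 1.43 FPKM, and DGAT1, which completes triglycerides, 23.3 ± 2.34 FPKM, against 27.0 ± 3.06 FPKM in control.

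For uptake, storage, efflux and control, 11 of 18 genes tested were higher in GL, 7 in RL and 7 in blue_light. The shares of all genes were 48.2%, 50.5% and 51.8%. LIPA, the lysosomal lipase, averaged 11.6 ± 1.61 FPKM in RL and 16.1 ± 8.07 FPKM in control. Control 1 set that difference: LIPA had 25.4, 11.25 and 11.6 FPKM in control, against 12.5, 12.5 and 9.73 FPKM in RL. The cholesterol exporter ABCA1 averaged 4.54 ± 1.89 FPKM in GL and 8.47 ± 4.36 FPKM in control, and the oxysterol receptor NR1H2 32.7 ± 3.71 FPKM in GL and 23.7 ± 2.63 FPKM in control. In blue_light the oxysterol receptor NR1H3 averaged 0.988 ± 0.0454 FPKM, against 2.05 ± 1.03 FPKM in control, and the exporter ABCG1 6.37 ± 0.782 FPKM, against 9.87 ± 2.38 FPKM in control. Both were lower in every blue_light library than in every control library, a pattern held by 4.3% of genes. NR1H3 had the smallest unadjusted p of the list, 0.0211 in edgeR (adjusted p = 1).

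Of 7 fatty acid oxidation genes, 6 were higher in GL, 5 in RL and 3 in blue_light, with medians of 0.11, 0.055 and 0.00 on the log2 scale. Over all genes 48.2%, 50.5% and 51.8% were higher, with medians of -0.02, 0.00 and 0.01. HADHB, a subunit of the mitochondrial trifunctional protein, averaged 27.3 ± 0.624 FPKM in GL, 26.2 ± 1.19 FPKM in RL and 23.3 ± 3.20 FPKM in control, and its partner HADHA 33.4 ± 0.758 FPKM in RL and 30.5 ± 3.05 FPKM in control. CPT2, which takes acyl groups into mitochondria, averaged 6.02 ± 1.48 FPKM in GL and 4.43 ± 1.24 FPKM in control. The medium-chain dehydrogenase ACADM averaged 17.0 ± 1.37 FPKM in blue_light and 13.8 ± 1.09 FPKM in control (log2 fold change 0.30 ± 0.16, edgeR adjusted p = 1). Every blue_light library was higher for ACADM, a pattern held by 4.74% of genes. ACADVL, which acts on very long chains, averaged 27.3 ± 1.34 FPKM in blue_light and 29.0 ± 1.25 FPKM in control.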

How the data were processed

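Libraries were made with a SMARTer mRNA kit, per the labels' protocols. Per the file headers, the authors deposited 2 values for each gene in each library: an estimated count and an FPKM. The sources used here do not give the aligner or quantifier. The submitters' processing notes name GRCm38 and mm10, a mouse build, whereas gene identifiers matched rabbit RefSeq symbols for all 29 members, so no coordinates are given. All estimated counts were whole, and rounding left them as they were. Low counts piled up at steps of about 3.81, so a count stands for less than 1 fragment. Zero counts were written as an FPKM of 0.0001.

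Counts were tested with edgeR 4.0.16 (quasi-likelihood fit, TMM scaling, filterByExpr, R 4.3.3) in 1 fit of all 12 libraries with 4 group means, over 18171 genes, with Benjamini-Hochberg adjustment over all of them. The biological coefficient of variation was 0.578, and TMM factors lay between 0.944 and 1.06. Alternatives were DESeq2 1.42.0, limma 3.58.1 on log2(FPKM + 1) and log2(FPKM + 0.1), other scaling and filters, a replicate block, covariates for library size and library set, counts divided by the step, a fit of only the groups compared, and leaving out each library in turn or 3 libraries with retinal transcripts.

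The members and lists were chosen with earlier results of these data known. Values in every library are given for HMGCS1 and SQLE and, against control, for the members with the smallest unadjusted p: 3 of the mevalonate and sterol enzymes, 2 of fatty acid and lipid synthesis and 1 regulator; between light groups 3 members are named, and up to 2 of each other list against control, some of which are not reported here. NSDHL, LPIN1 and SREBF2 in GL, MSMO1 in GL, GGPS1 in RL and the entries with descriptions are named outside that rule, after their values were seen. The main fit treated the replicate numbers of the titles as unpaired. The deviations of same-numbered libraries were not correlated above 0.1 in every pair of any comparison. Without a reference from differently numbered libraries, that does not exclude pairing.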

Additional observations from a re-analysis of the deposited data

Results flagged for a closer look

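In 3 entries known by their description, each library of one light group lay on one side of every control and each library of another light group on the other side. For the isomerase entry LOC103352172 this held for RL, below control, and blue_light, above it; the log2 difference of RL over blue_light was -4.52 (edgeR adjusted p = 0.663 for the difference itself). For the desaturase LOC100346561 it held for GL, below control, and RL, above it. On the GL side the margin was slight, with 305.1 FPKM in GL 1 and 305.4 FPKM in control 1. The log2 difference of GL over RL was -0.63 (edgeR adjusted p = 0.295). For the desaturase LOC103347610 it held for RL, above control, and blue_light, below it; the log2 difference of RL over blue_light was 2.31 (edgeR adjusted p = 0.556). None of the 3 differences passed the edgeR test. For LOC103352172, RL over blue_light, limma gave an adjusted p of 0.00989 on log2(FPKM + 1) and 0.0336 on log2(FPKM + 0.1). The entries were picked with their values in view. The share of all genes lying on opposite sides of control in this way was not computed, so the count of 3 has no background.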

How the results depend on the processing

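The count of members changed was 0 in every comparison under edgeR and limma, whichever scaling, filter, covariate or library was changed. DESeq2 called 2 members in RL against control, 2 in GL against RL, 1 in GL against blue_light, 1 in RL against blue_light, 2 among any of the 4 groups, and 0 in GL and in blue_light against control; the cause was not tested. Over all genes DESeq2 called 147, 87 and 29 genes in GL, RL and blue_light against control, where edgeR called 10, 2 and 3. It called 202 in GL against RL, 383 in GL against blue_light, 81 in RL against blue_light and 267 for any difference, where edgeR called 13, 9, 2 and 11. Over the other alternatives these counts ran from 0 to 28. With a replicate block, 0 members changed in any comparison, and the median log2 fold change of the members was 0.23 in GL, 0.435 in RL and -0.08 in blue_light against control. Same-numbered libraries had correlations between -0.07 and 0.235. Differently numbered libraries were not compared, so these values cannot settle whether the numbers pair libraries.

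Directions turned round for some small differences (log2 fold changes). In GL against control, leaving out 1 library moved HMGCS1 between -0.451 and 0.135 (0.128 without GL 3), SQLE between -0.209 and 0.071, LOC103352172 between -0.129 and 0.46, and LOC100346046 between -0.039 and 0.585. With library size as a covariate LOC103352172 was -0.276, LOC100346046 -0.106, TM7SF2 -0.139, FDFT1 -0.05 and ACLY -0.042, and the median of the members -0.112. With the library set as a covariate LOC103352172 was -0.177. In blue_light against control, leaving out 1 library moved HMGCS1 between -0.308 and 0.193 (0.005 without blue_light 1, 0.092 without blue_light 3) and SQLE between -0.007 and 0.291. With the library set HMGCS1 was 0.243, FADS1 0.154 and SREBF2 0.261, and the median 0.236. In GL over blue_light the library set gave -0.147 for SREBF2 and for the median, and library size gave a median of -0.091. Without RL 2, edgeR called LOC103352172 in RL against control (adjusted p = 0.00182) and in GL against RL (adjusted p = 0.000688) too. These calls drop the RL library that held most of its RL counts, so they do not support a difference. Levels were printed as deposited FPKM, so they were not rescaled with DESeq2 size factors. Precision is lowest for entries with few counts, such as LOC100346274 with 17 to 49.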
